A study of Homo sapiens with 4 samples.

Results

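The mitochondrial ribosomal protein genes were taken as all protein-coding genes whose symbol starts with MRPL (large subunit) or MRPS (small subunit), matched by Ensembl identifier to the 4 count files. The rule found 78 genes, 49 MRPL and 29 MRPS, among the 60564 identifiers counted. Elf1 is an established naïve human embryonic stem cell (ESC) line, and RNA-seq was performed on 2 libraries of 2-D grown cells, by the labels adherent on plates coated with Matrigel, and 2 libraries of 3-D grown cells, held for 21 days in a scaffold assembled from the polymers PEG-8-SH and PEG-8-Acr. Both groups were kept in the same ESC expansion medium and carry no genetic change by the labels, and the time in 2-D culture is not given in the labels. The results describe 1 line, whose routine maintenance the study's methods place on mouse feeder cells. By the same methods, the cells were moved to Matrigel without feeder cells before they were placed in scaffolds. RNA from bulk cells cannot tell a change in the number of cells of a type from a change in RNA per cell.

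Mitoribosomes translate the mRNAs of the mitochondrial genome, which encode core subunits of the respiratory chain and ATP synthase. Their RNA comes from the mitochondrial genome, while all of their proteins are encoded in the nucleus, made in the cytosol and imported. Some of these proteins have a counterpart in the bacterial ribosome and others are specific to mitochondria. Assembly factors, translation factors and mitochondrial aminoacyl-tRNA synthetases complete the machinery.

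The 78 genes lay on 21 chromosomes. Many had the letters of known promoter motifs close to their start. In the RefSeq promoter table (GRCh38.p14, 250 bases before to 50 bases after a gene's first listed start), 69 of the 78 genes were found. The letters CCGGAAG, the core bound by ETS factors, stood on either strand in 29 of these 69 promoters (42.0%), against 14.2% of 15842 protein-coding promoters and 10.7% of all 27305. AAGATGGCG, a YY1 motif, was held by 13 (18.8%), against 2.74% of protein-coding and 1.85% of all promoters. CGCATGCG, a core of the NRF1 motif, was held by 3 (4.35%), against 2.88% and 2.19%. Promoters of 71 cytosolic ribosomal protein genes also often held the ETS letters (32.4%), with the YY1 letters in 8.45% and the NRF1 letters in 1.41%. The ETS and YY1 letters share AAG and can overlap in a promoter. The 2 subunits had like shares, with ETS letters in 40.5% of 42 MRPL and 44.4% of 27 MRPS promoters. Among the genes with ETS letters that were tested, 3 of 28 were called as changed by the test described below, and among those without, 5 of 39, where the share over all tested genes was 7.9%. A match of letters is a description and not a binding site.

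The 250 bases upstream of the start are shown for the called genes that had no annotated exon in them (MRPS21, MRPS26 and MRPL19; the calls follow below), all read on the plus strand from GRCh38.p14, chr1:150293611-150293860, chr20:3045802-3046051 and chr2:75646533-75646782. Capitals mark the ETS letters, here read on the other strand as CTTCCGG. MRPS21 and MRPS26 held them once each within this stretch, and MRPL19 held none of the 3 motifs.
MRPS21: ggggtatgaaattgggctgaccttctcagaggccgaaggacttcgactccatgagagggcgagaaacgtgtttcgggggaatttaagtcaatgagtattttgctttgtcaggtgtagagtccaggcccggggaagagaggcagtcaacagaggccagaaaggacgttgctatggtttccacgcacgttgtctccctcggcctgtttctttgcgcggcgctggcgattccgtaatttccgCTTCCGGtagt
MRPS26: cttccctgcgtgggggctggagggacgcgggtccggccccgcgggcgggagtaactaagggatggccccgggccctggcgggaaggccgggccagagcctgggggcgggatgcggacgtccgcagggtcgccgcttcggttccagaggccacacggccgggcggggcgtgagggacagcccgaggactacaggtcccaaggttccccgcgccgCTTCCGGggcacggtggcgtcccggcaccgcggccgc
MRPL19: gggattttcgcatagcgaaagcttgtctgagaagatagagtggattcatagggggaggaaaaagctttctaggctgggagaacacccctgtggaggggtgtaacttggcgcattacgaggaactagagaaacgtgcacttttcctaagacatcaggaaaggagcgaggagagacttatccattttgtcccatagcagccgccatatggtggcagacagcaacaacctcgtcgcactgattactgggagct

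Libraries held 30114220 and 33833778 counts in 2-D and 18276147 and 21154409 in 3-D grown cells. Levels are given as CPM, counts scaled to the library total after TMM normalization, and changes as the log2 fold change of 3-D over 2-D with its standard error (SE). Genes were tested by edgeR's quasi-likelihood method, the false discovery rate (FDR) was adjusted by Benjamini-Hochberg over the 22555 genes tested, and a gene was called at an adjusted p under 0.05. Of the core pluripotency markers, POU5F1, SOX2, NANOG and LIN28A were all tested and 0 of 4 were called. Of 6 naïve markers, DPPA5 was near 0 (at most 0.130 CPM) and KLF17 low (0.465 to 1.07 CPM), and 0 of the 5 tested were called. Of the 4 primed markers SFRP2 was called higher (95.4 and 96.1 CPM in 2-D, 115 and 118 CPM in 3-D). Tested were 2 of 4 endoderm, 3 of 4 mesoderm, 2 of 3 neural ectoderm and 4 of 4 trophoblast markers, and 0 were called. The endoderm marker GATA6 was at 0.842 and 1.10 CPM in 2-D and 2.34 and 1.51 CPM in 3-D, without overlap. Its edgeR adjusted p was 0.0516, just past the threshold. Of the other tested lineage markers, EOMES and TFAP2A were lower in 3-D and the rest higher. Of 6 fibroblast markers, COL1A1, COL3A1 and THY1 were called higher in 3-D, COL1A2, the most abundant of them, was not called (325 and 316 CPM in 2-D, 301 and 325 CPM in 3-D), DCN and LUM were too low to test, and the list summed to 529 and 521 CPM in 2-D and 539 and 586 CPM in 3-D grown cells. Reads of the mitochondrial genome made up 5.10% and 5.30% of counts in 2-D and 8.33% and 8.50% in 3-D grown cells. Library sizes taken without mitochondrially encoded, histone and ribosomal protein genes gave 1763 called genes, against 1782 with them. The median log2 fold change of all tested genes moved by -5.3e-05. Any other part of the mitochondrial reads, and the part of the fibroblast markers, in the values below was not tested.

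As a group, the mitochondrial ribosomal protein genes stayed close to their 2-D level in 3-D grown cells. Their summed level was 3261 and 3256 CPM in 2-D and 3254 and 3196 CPM in 3-D libraries, and both 3-D values lay below the 2-D pair, 1 of them narrowly. Of the 78 genes, 76 passed the filter on low counts. For 45 of these the 95% interval of the log2 fold change lay within 0.25 on either side of 0. The same held for 6698 of 22555 tested genes and 6326 of 14305 tested protein-coding genes. Their median SE was larger, at 0.12 and 0.075, against 0.058 in the 76 genes. The log2 fold change was under 0.1 in size for 40 of the 76 genes and 7137 of the 14305. The median log2 fold change was -0.03, against 0.00 over all tested genes. With gene length and GC content corrected for, both subunits' medians turned to above 0, and the median of all tested genes rose to 0.0081. In all, 8 of the 76 were called (10.5%), against 7.9% of all tested genes and 9.98% of tested protein-coding genes. Of the 8, 6 were lower in 3-D, where the background was 3.36%, and 2 were higher, where it was 4.54%. At an unadjusted p under 0.05 the count was 26 of 76 (34.2%, background 21.3% of all tested and 25.5% of protein-coding genes), and the libraries of the 2 conditions did not overlap for 50 of 76 (65.8%, background 50.5% and 54.5%), lower in 27 and higher in 23.

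**Figure D1:**
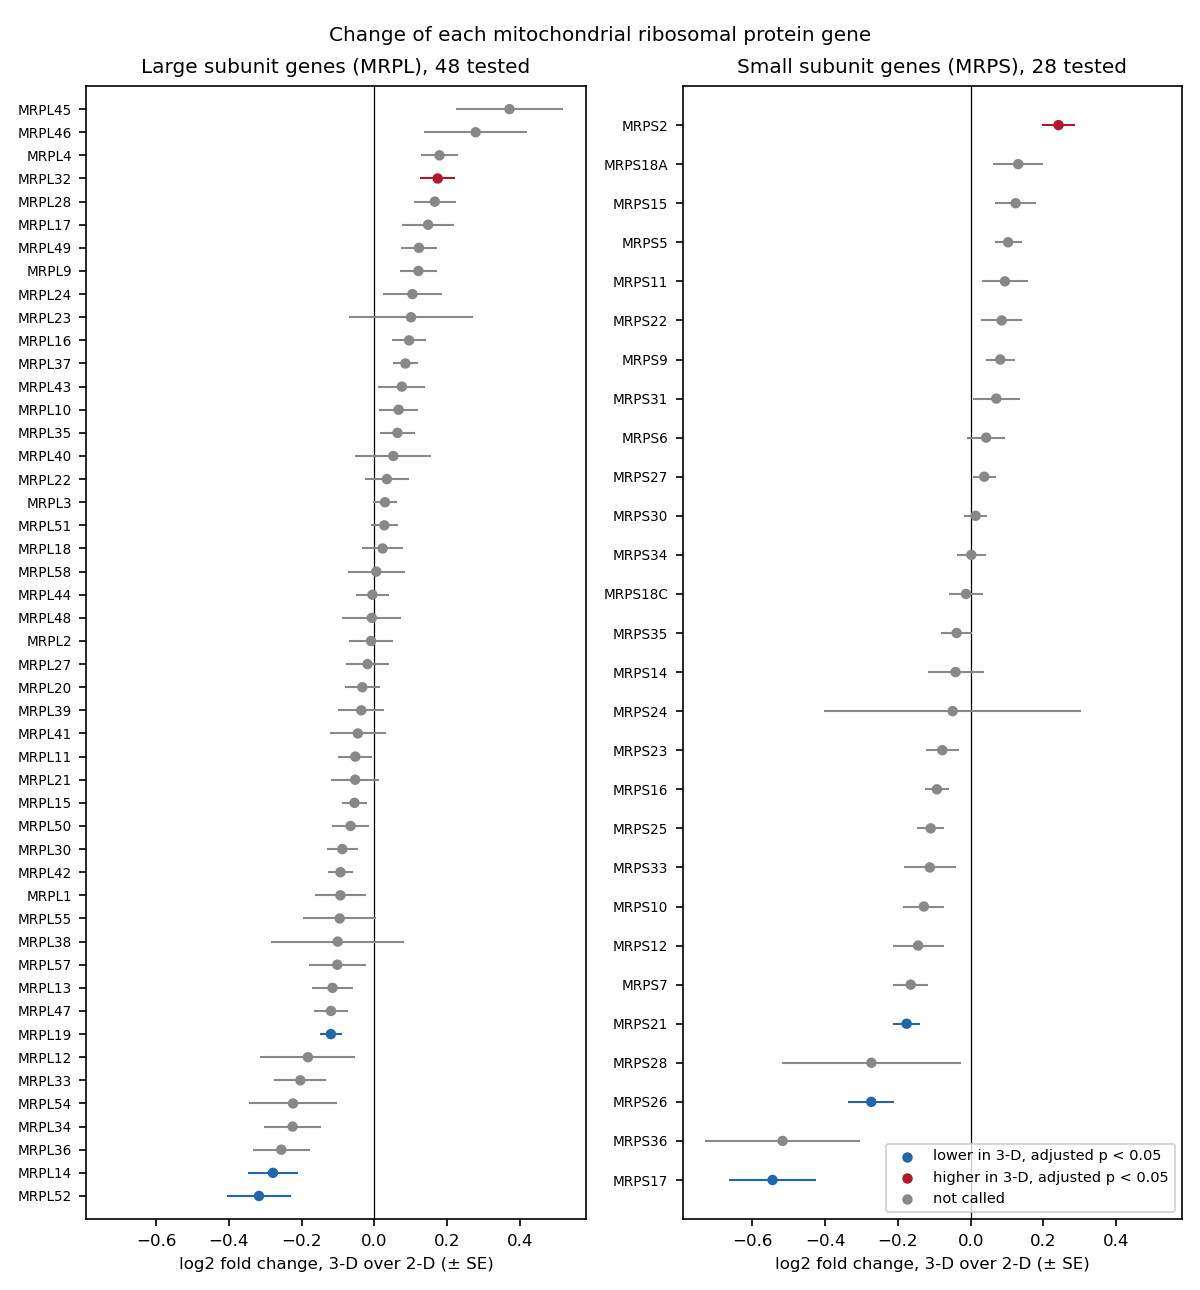
Log2 fold change of 3-D over 2-D (horizontal axis, bars ± SE) of the 48 tested MRPL and 28 tested MRPS genes, sorted within each subunit. Blue and red points are the 6 genes called lower and the 2 called higher at an adjusted p under 0.05, and grey points were not called. Most genes lie near 0, and the widest bars belong to genes with low counts such as MRPS24 and MRPS28.

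Among large subunit genes, MRPL14, MRPL19 and MRPL52 were lower in 3-D grown cells and MRPL32 was higher, with changes of 0.12 to 0.32 in size on the log2 scale. These were 4 of 48 tested (8.33%), close to the background of 7.9%. In direction, 27 of the 48 were lower and 21 higher, with a median of -0.01. Summed, they gave 1963 and 1964 CPM in 2-D and 1965 and 1927 CPM in 3-D grown cells, values that overlap.

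MRPL14 (ENSG00000180992, chr6:44113451-44127452), the counterpart of bacterial ribosomal protein L14, stood at 28.0 and 28.2 CPM in 2-D and 24.1 and 22.2 CPM in 3-D libraries. Both 3-D libraries were below both 2-D libraries, and the log2 fold change was -0.28 (SE 0.069, edgeR adjusted p = 0.0263). MRPL19 (ENSG00000115364, chr2:75646783-75690851), the counterpart of bacterial L19, was at 123 and 124 CPM in 2-D and 114 and 113 CPM in 3-D libraries. Its change was small, with no overlap and close replicates, at -0.12 (SE 0.030, edgeR adjusted p = 0.0268). MRPL52 (ENSG00000172590, chr14:22829879-22835037), a protein specific to mitochondria, was at 25.1 and 22.3 CPM in 2-D and 20.5 and 17.5 CPM in 3-D libraries. The replicates of each condition were apart by less than the means were (23.7 against 19.0 CPM), and the log2 fold change was -0.32 (SE 0.089, edgeR adjusted p = 0.0487). MRPL32 (ENSG00000106591, chr7:42932376-42948958), whose protein is trimmed by a mitochondrial protease before it joins the ribosome, was at 59.6 and 58.0 CPM in 2-D and 69.7 and 62.8 CPM in 3-D libraries. The first 3-D library was the highest, the groups did not overlap, and the log2 fold change was 0.17 (SE 0.048, edgeR adjusted p = 0.0468). With 1 library left out, none of the 4 was called without the first 2-D library, MRPL52 alone without the second, MRPL14, MRPL19 and MRPL52 without the first 3-D library, and MRPL19 and MRPL32 without the second. Both DESeq2 and the likelihood ratio test of edgeR gave 0 calls of 48, where they called 3.7% and 5.05% of all tested genes.

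The first large subunit gene on the other side of the threshold was MRPL4, a counterpart of bacterial L4, at 40.3 and 39.4 CPM in 2-D and 44.5 and 45.7 CPM in 3-D libraries, with a log2 fold change of 0.18 (SE 0.051, edgeR adjusted p = 0.0533). Of the other genes with the largest differences, MRPL36, MRPL34 and MRPL54 had log2 fold changes of -0.26, -0.22 and -0.22, and MRPL45, MRPL46 and MRPL28 had 0.37, 0.28 and 0.17. None of these passed the test, although their libraries did not overlap. MRPL54 had 1 low library, at 7.69 CPM, against over 10 CPM in each of the others. MRPL45, a protein that anchors the ribosome to the inner membrane, and MRPL46 had under 5 CPM in every library.

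Among small subunit genes, MRPS17, MRPS26 and MRPS21 were lower in 3-D grown cells and MRPS2 was higher, with changes of 0.18 to 0.54 in size on the log2 scale. These were 4 of 28 tested (14.3%, background 7.9%). In direction, 16 of the 28 were lower and 12 higher, with a median of -0.04. Summed, they gave 1298 and 1292 CPM in 2-D and 1289 and 1269 CPM in 3-D grown cells.

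MRPS17 (ENSG00000239789, chr7:55951877-55956500), the counterpart of bacterial S17, which contacts the ribosomal RNA, stood at 7.67 and 7.79 CPM in 2-D and 5.55 and 5.02 CPM in 3-D libraries. It had the largest change of the 76 genes, without overlap, at -0.54 (SE 0.12, edgeR adjusted p = 0.0144), on 264, 240, 114 and 90 counts. MRPS26 (ENSG00000125901, chr20:3046052-3048250), a protein specific to mitochondria, was at 36.2 and 38.1 CPM in 2-D and 29.7 and 31.7 CPM in 3-D libraries. The groups were apart by more than the replicates of either, with a log2 fold change of -0.27 (SE 0.063, edgeR adjusted p = 0.0193). MRPS21 (ENSG00000266472, chr1:150293861-150308979), the counterpart of bacterial S21, was at 67.9 and 70.1 CPM in 2-D and 60.9 and 61.2 CPM in 3-D libraries. Its groups did not overlap, with a log2 fold change of -0.18 (SE 0.038, edgeR adjusted p = 0.0136). MRPS2 (ENSG00000122140, chr9:135499984-135504673), the counterpart of bacterial S2, was at 48.2 and 48.8 CPM in 2-D and 56.3 and 58.4 CPM in 3-D libraries. It had the smallest adjusted p of the 76 genes, at 0.00506 by edgeR's quasi-likelihood test, with a log2 fold change of 0.24 (SE 0.044). Of the 4, MRPS26 alone kept its call without the first 2-D library and MRPS2 alone without the second, while all 4 kept it without either 3-D library. DESeq2 called MRPS2 alone of the 28, and 3.7% of all tested genes. An antisense RNA (ENSG00000226706) shares 10.1% of the exon bases of MRPS2 and was called higher too, at 0.30 on the log2 scale (edgeR adjusted p = 0.0263). The strand setting of the counting is not given in the sources used here, so reads of these partners cannot be told apart.

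**Figure D2:**
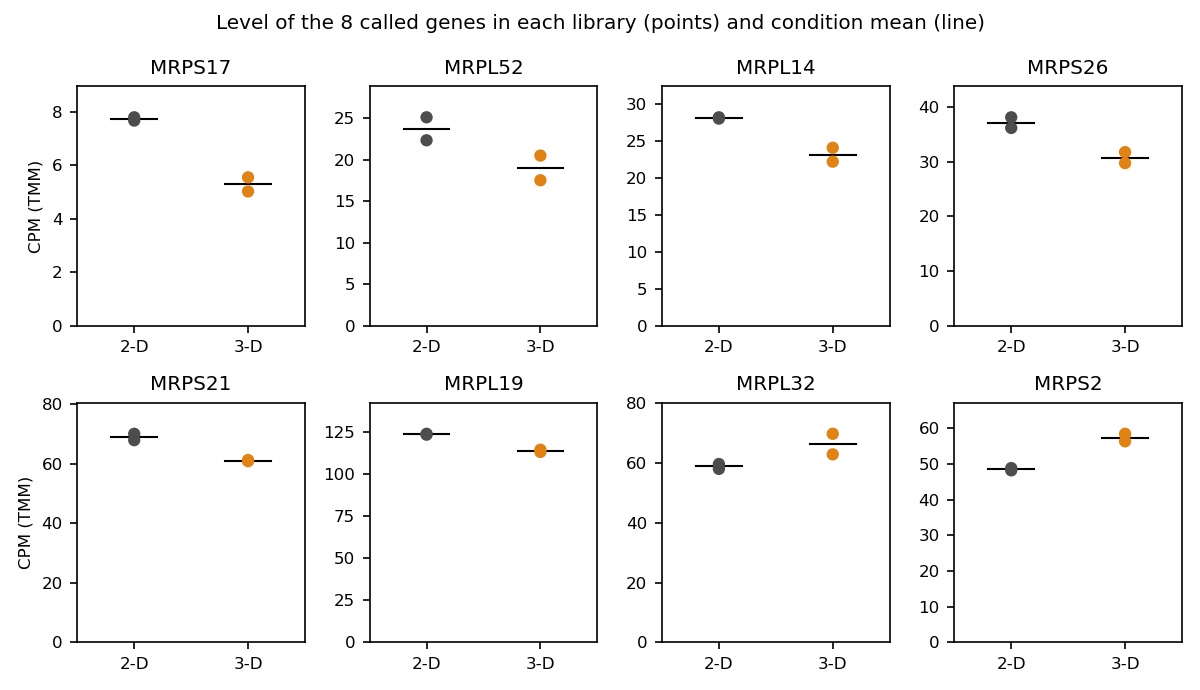
Level in CPM (vertical axis, from 0) of the 8 called genes in each library, with 2-D libraries in grey and 3-D libraries in orange and a line at each condition's mean. The groups do not overlap in any panel, and the differences are small against the level except for MRPS17, at 7.67 and 7.79 CPM in 2-D and 5.55 and 5.02 CPM in 3-D.

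Past the threshold, the next small subunit gene was MRPS7, a counterpart of bacterial S7, at 54.2 and 54.0 CPM in 2-D and 50.1 and 46.4 CPM in 3-D libraries, with a log2 fold change of -0.16 (SE 0.049, edgeR adjusted p = 0.0606). MRPS18A, MRPS15, MRPS5 and MRPS11 had log2 fold changes of 0.13, 0.12, 0.10 and 0.09, without a call and without overlap of their libraries. MRPS36 was at 13.6 and 11.3 CPM in 2-D and 5.89 and 11.8 CPM in 3-D libraries, so the value of -0.52 (SE 0.21, edgeR adjusted p = 0.178) rested on 1 library: it was -0.09 without the first 3-D library and -1.09 without the second. MRPS28 differed by -0.27 (SE 0.25) on 24 to 80 counts.

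Some symbols do not match the place of the protein. MRPS30 and MRPS18A are found in the large subunit, and MRPS36 is known as a component of the 2-oxoglutarate dehydrogenase complex and not of the ribosome. MRPS30 was at 101 and 104 CPM in 2-D and 104 and 104 CPM in 3-D libraries. Counted by place, 4 of 50 large subunit and 4 of 25 small subunit genes were called, the same 8 genes, beside 7.9% of all tested genes. The paralog MRPS18C was at 47.4 and 47.3 CPM in 2-D and 47.1 and 46.8 CPM in 3-D libraries, and MRPL58, a peptidyl-tRNA hydrolase built into the large subunit, was at 22.2 and 22.0 CPM in 2-D and 23.7 and 20.6 CPM in 3-D libraries. Of proteins with a bacterial counterpart, 3 of 30 in the large and 3 of 16 in the small subunit were called, and of those specific to mitochondria, 1 of 20 and 1 of 9. These small counts stand beside the same background of 7.9% (9.98% of protein-coding genes), and the difference between the classes was not tested.

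The other 2 of the 78 genes, MRPL53 and MRPS18B, could not be tested, since both had 0 counts in all 4 libraries. MRPL53 shares 99.4% of its exon bases with other genes, 72.8% on its own strand with CCDC142, which had 410 and 355 counts in 2-D and 213 and 231 counts in 3-D libraries, and only 4 bases are its own. MRPS18B lies in the major histocompatibility region of chromosome 6 and has 6 copies of 100% identity on alternate contigs of hg38. Of the 12 protein-coding genes wholly within 100000 bases of it, itself included, 6 had 0 counts in all libraries and 8 had at most 3 counts in any. These counts say nothing about whether the genes are transcribed.

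Copies and overlaps also touched tested genes. MRPL45, MRPL23 and MRPS36 each have 1 copy of at least 98% identity, on an alternate contig or, for MRPL23, on a contig of chromosome 11 without a fixed position, and at 95% identity MRPS10 joins them with 1 on chromosome 9. MRPL12, the counterpart of the bacterial L7/L12 stalk protein, shares 69.5% of its exon bases with a further protein-coding gene annotated on the same strand, which had 0 counts. MRPL12 was at 13.3 and 11.5 CPM in 2-D and 9.29 and 12.7 CPM in 3-D libraries. Its fold change of -0.18 (SE 0.13) was not called and its libraries overlapped. MRPS24 had 10 to 25 counts and shares 23.2% of its exon bases with the readthrough gene URGCP-MRPS24, which had 0 counts. MRPS17 shares 22.4% with a further protein-coding gene annotated on its strand, which had 0 to 3 counts. MRPL19 shares 21.0% of its exon bases with other genes, most of it (19.5%) with a noncoding RNA on its strand that had 0 counts. Without the genes that have such a copy or share over 20% of their exon bases, 3 of 38 MRPL genes (MRPL52, MRPL14 and MRPL32) and 3 of 18 MRPS genes (MRPS26, MRPS21 and MRPS2) were called, beside 7.9% of all tested genes. The called genes MRPL19 and MRPS17 were left out by this cutoff and not by a change in their test. The 79 MRPL and MRPS pseudogenes held counts equal to 0.375% to 0.457% of those of the protein-coding genes, and 0 of the 6 tested were called by edgeR.

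Levels per length differed far more between these genes than between conditions. In CPM per kb of exons, averaged over the 4 libraries, MRPL genes ran from 0.678 (MRPL46) to 60.3 (MRPL3), with a median of 13.3. MRPL3, a core protein near the peptidyl transferase center in bacteria, stood at 58.5 to 62.0 and MRPL51 at 58.1 to 61.1, so their ranges over the libraries overlapped, while MRPL15 (40.2 to 42.1) and MRPL47 (37.5 to 42.5) followed, below both and overlapping each other. At the low end, MRPL38 was at 0.822 and MRPL45 and MRPL23 at 2.31 each. MRPL38 shares 45.1% of its exon bases with other genes and MRPL46 11.3%, and MRPL45 and MRPL23 have the copies named above. MRPS genes ran from 0.282 (MRPS24) to 53.3 (MRPS34), with a median of 12.1. MRPS34 stood at 52.6 to 53.9, above MRPS21 (mean 43.4), which stood above MRPS9 (mean 36.7), with no overlap of the ranges over the libraries. MRPS28 and MRPS22 were low at 1.14 and 2.25. They share 35.8% and 42.8% of their exon bases with other genes, and MRPS24 shares 23.2%. Whether reads of these low genes were lost to shared exons or copies was not tested. The order depended on the length used. Per kb of the canonical transcript the medians were 24.6 and 27.6, MRPL3 and MRPL51 stayed at ranks 1 and 2 of 48 and MRPS24 stayed lowest, but MRPS30 moved from rank 11 to 1 of 28, MRPS34 from 1 to 3, MRPS9 from 3 to 6, MRPL15 from 3 to 11 of 48 and MRPS22 from 26 to 13 of 28, and MRPL38 became the lowest MRPL gene.

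**Figure D3:**
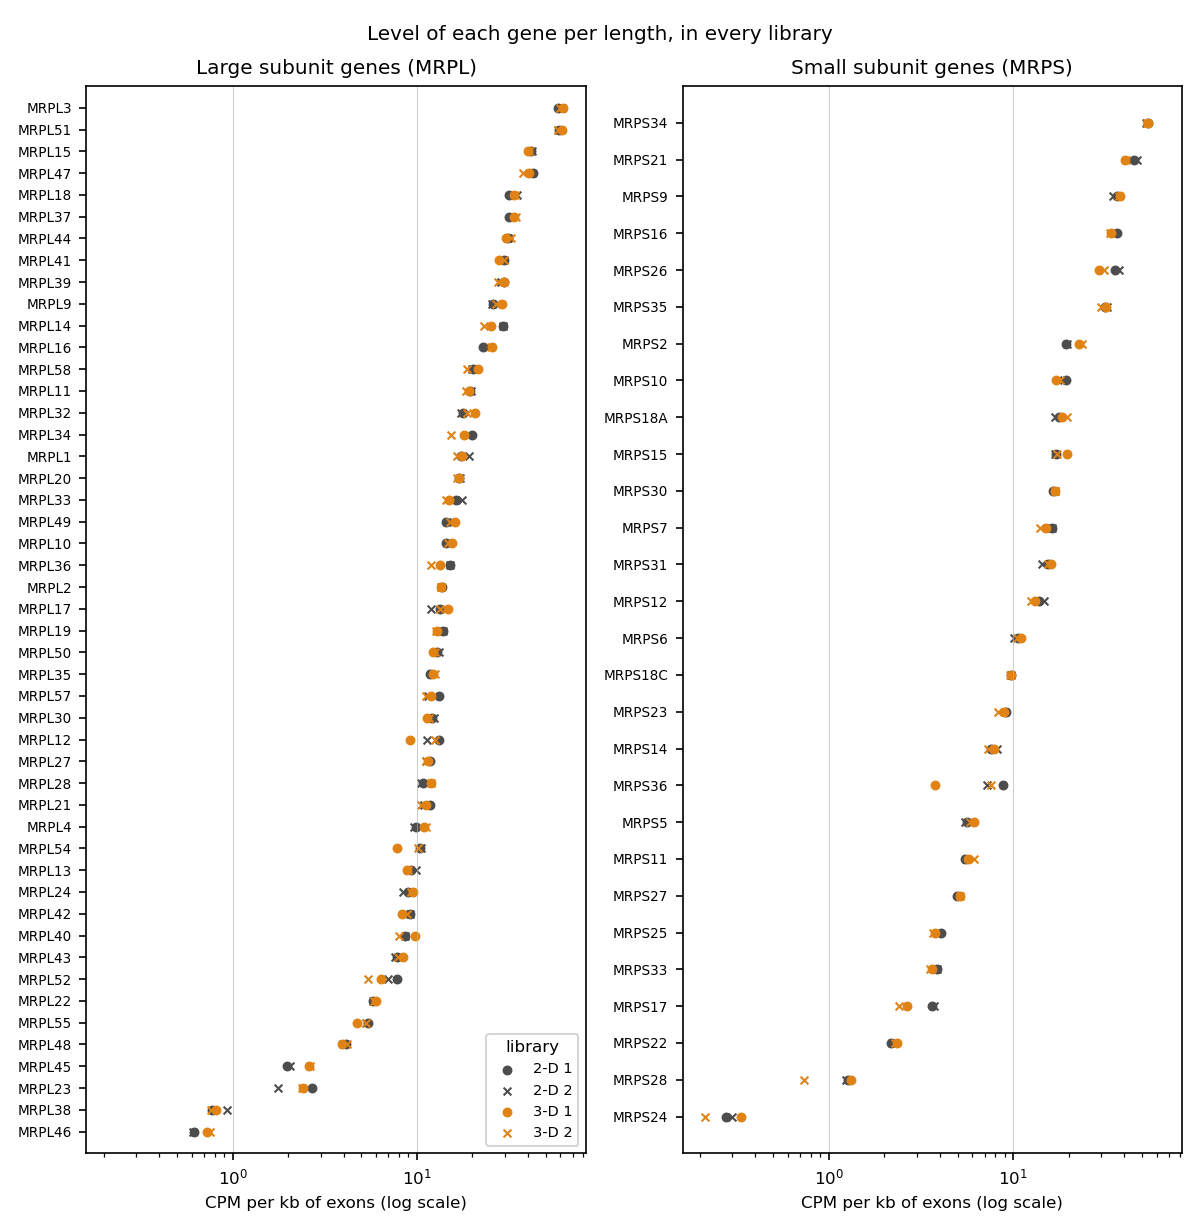
Level of each tested gene in CPM per kb of exons (horizontal axis, log scale), sorted within each subunit, with 1 point for each library. Points of 1 gene lie close together while genes spread from 0.678 to 60.3 in the large and from 0.282 to 53.3 in the small subunit, and MRPS36, MRPS28, MRPL12 and MRPL54 each show 1 3-D library apart from the rest.

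Genes of the same machinery without the MRPL or MRPS prefix were also mostly uncalled, with 5 of 72 called against the background of 7.9%. Of 5 further mitoribosome proteins, CHCHD1, a small subunit protein, was lower, at 29.8 and 32.3 CPM in 2-D and 25.6 and 23.7 CPM in 3-D libraries (log2 fold change -0.33, SE 0.071, edgeR adjusted p = 0.0136). Of 31 assembly and rRNA modification factors, 0 were called by edgeR's quasi-likelihood test and 3 had an unadjusted p under 0.05, all lower, with a list median of -0.02 (3 were called when only library size was scaled for, and 0 by DESeq2). Of 18 genes of translation factors, mRNA stability and tRNA modification, 3 were called. SLIRP, which stabilizes mitochondrial mRNAs together with LRPPRC, was at 108 and 109 CPM in 2-D and 91.2 and 83.8 CPM in 3-D libraries (-0.31, SE 0.039, edgeR adjusted p = 0.000498). GATC, a subunit of the amidotransferase that makes glutaminyl-tRNA, was at 105 and 109 CPM in 2-D and 87.0 and 86.9 CPM in 3-D libraries (-0.30, SE 0.033, edgeR adjusted p = 0.000202). TUFM, the elongation factor that brings tRNAs to the ribosome, was higher, at 142 and 139 CPM in 2-D and 164 and 169 CPM in 3-D libraries (0.24, SE 0.031, edgeR adjusted p = 0.000536). In each of these the groups were apart. SLIRP, GATC and TUFM were called under all 15 alternatives run, and CHCHD1 under 14, losing its call without the second 2-D library. Of 18 tested mitochondrial aminoacyl-tRNA synthetases, IARS2, for isoleucine, was lower, at 153 and 151 CPM in 2-D and 137 and 139 CPM in 3-D libraries (-0.14, SE 0.030, edgeR adjusted p = 0.0130), and lost its call without either 2-D library, under DESeq2 and under the likelihood ratio test. Of 9 regulators of mitochondrial genes, the nuclear receptor ESRRA was lower (-0.24, SE 0.065, edgeR adjusted p = 0.0388, not called without either 2-D or without the second 3-D library, nor by DESeq2 or the likelihood ratio test) and the coactivator PPRC1 higher (0.19, SE 0.030, edgeR adjusted p = 0.00228).

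Other gene groups of ribosomes and mitochondria gave different counts in the same fit, where 7.9% of all tested and 9.98% of tested protein-coding genes were called. Of 84 tested cytosolic ribosomal protein genes, 40 were called, of which 30 were lower and 10 higher, and their median was -0.08. Of 77 nuclear genes of the respiratory chain, 27 were called, of which 26 were lower and 1 higher, and their median was -0.13. Of the 13 mRNAs of the mitochondrial genome, which mitoribosomes translate, 12 were called, all higher, with a median of 0.76. Without the first or the second 2-D library the cytosolic median was -0.072 and -0.098 and the respiratory chain median -0.129 and -0.139. Without the first or the second 3-D library they were -0.113 and -0.067, and -0.166 and -0.116. The difference between these groups and the mitochondrial ribosomal protein genes was not tested. The median SE was 0.034 in the cytosolic list, 0.055 in the respiratory chain list and 0.058 in the mitochondrial ribosomal protein genes.

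**Figure D4:**
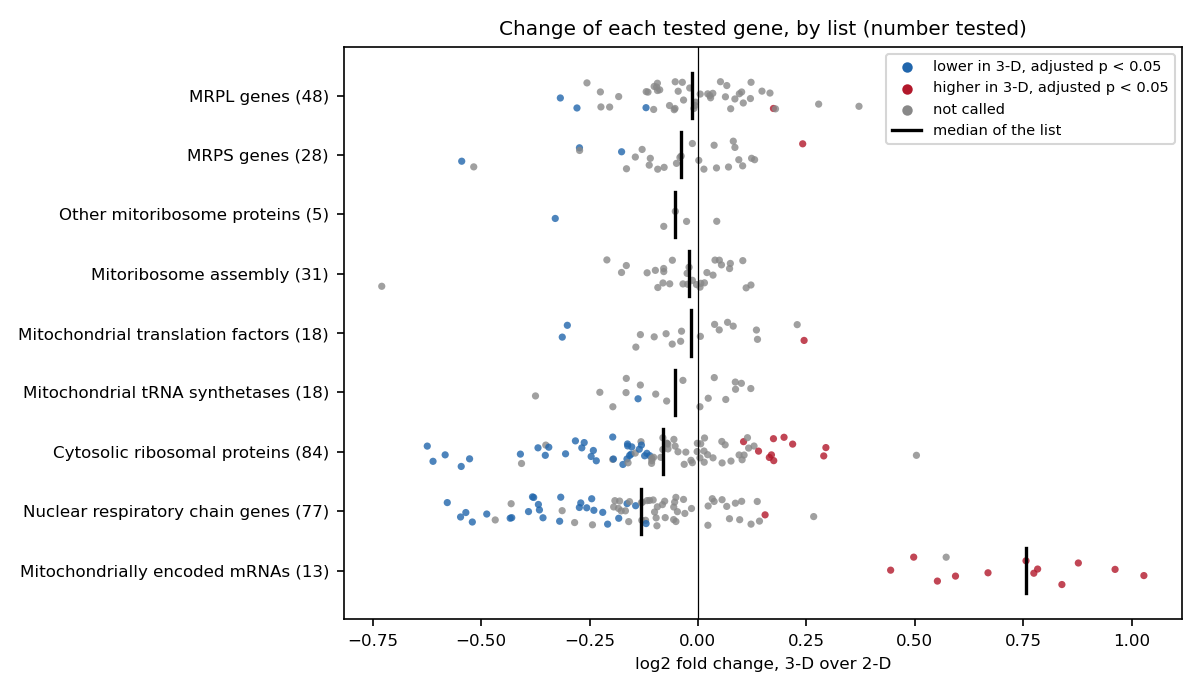
Log2 fold change of 3-D over 2-D (horizontal axis) of every tested gene in 9 lists, with the number tested in parentheses, a black line at the list's median and colours for genes called lower (blue) or higher (red). MRPL and MRPS genes center on -0.01 and -0.04 with few calls, the cytosolic ribosomal and respiratory chain lists carry many blue points, and the mitochondrially encoded mRNAs lie at 0.44 to 1.03.

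Many of these genes share a start region with a neighbour on the other strand. A protein-coding gene started within 1000 bases on the opposite strand for 27 of the 78, and in 24 such pairs both genes were tested. Of these, 12 pairs had log2 fold changes of the same sign and 12 of opposite sign. In 3 pairs the ribosomal protein gene was called, in 3 the neighbour, and in 0 both, by edgeR. The share called was 7.9% over all tested genes and 9.98% over tested protein-coding genes, and the pairs were not tested against it. MRPL52, MRPL14 and MRPL32, at -0.32, -0.28 and 0.17, faced SLC7A7, TMEM63B and PSMA2, at 0.16 (SE 0.15), 0.15 (SE 0.054) and -0.14 (SE 0.080), none of which was called. Of the called neighbours, the respiratory chain subunit NDUFB5 was at -0.27 beside MRPL47 at -0.12, with starts 41 bases apart. The ribosomal protein gene FAU was at -0.17 beside MRPL49 at 0.12, with starts 6 bases apart, and the mitotic gene SKA3 was at 0.20 beside MRPL57 at -0.10.

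**Figure D5:**
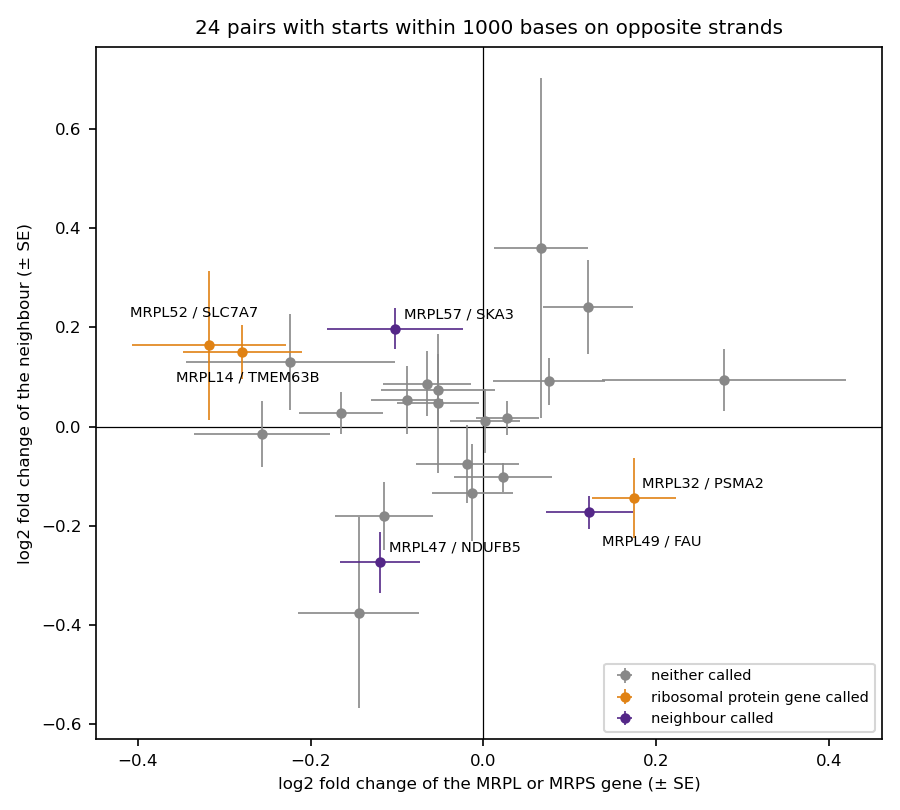
Log2 fold change of the MRPL or MRPS gene (horizontal axis) against that of its head-to-head neighbour (vertical axis) for 24 pairs, with bars of ± SE. Orange points are the 3 pairs whose ribosomal protein gene was called, purple points the 3 whose neighbour was called, and 12 pairs lie in quadrants of opposite sign.

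Across the 76 tested genes, the log2 fold change had a Spearman correlation of 0.07 with canonical transcript length, 0.26 with the summed length of exons and 0.05 with GC content. Over 14305 tested protein-coding genes these values were 0.05, 0.05 and 0.19. They are given as a description over genes of the same 4 libraries. The canonical transcripts of the 76 genes were short, with a median of 1242 bases against 3380 in tested protein-coding genes.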

How the data were processed

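RNA-seq data of Elf1 cells grown in 2-D (2 libraries) and 3-D (2 libraries) were used, grouped by sample title. Libraries were made from total RNA with a KAPA RNA HyperPrep kit with RiboErase. Per the submitters' processing notes, the authors trimmed reads with Trim Galore 0.6.3, mapped them to hg38 with HISAT2 2.1.0 and made the deposited counts with featureCounts 1.6.4. The counts are whole numbers per gene and library, without normalization or pooling. Handling of strand and of reads with several positions is not given in the sources used here. The authors also deposited a normalized signal, the counts divided by DESeq2 2.11.40.6 size factors, used here only in an alternative. The same deposited table holds the authors' log2 fold changes, scores (standard error and Wald statistic) and p-values, which were not used.

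Genes were named and placed with GENCODE release 44 (60295 of 60564 identifiers matched). Counts of 18276147 to 33833778 per library were fitted over all genes with edgeR 4.0.16 (TMM, filterByExpr, quasi-likelihood, condition alone, Benjamini-Hochberg adjustment), in R 4.3.3, after a check on simulated data. SE is the absolute log2 fold change divided by the square root of F. P-values measure the spread between these libraries, which the labels call biological replicates. Copies were sought with minimap2 2.31-r1302 (at least 98% identity over 80% of the longest transcript). Alternatives were other normalizations, filters, tests (limma 3.58.1, DESeq2 1.42.0), a replicate block, length and GC offsets, and leaving out each library. Leaving out genes with copies or shared exons, and levels per canonical transcript, were added after seeing the data. The genes and lists were chosen with earlier results of these data known. Named genes were all called ones, the 5 of each subunit that differed most each way, the 3 highest and lowest per length, those next to the threshold, those whose symbol and place differ and their paralogs, those with a copy or shared exons, and called genes of the related lists. Head-to-head pairs were named where a gene of the pair was called, and MRPL12 was described in full after its values were seen.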

Additional observations from a re-analysis of the deposited data

How the results depend on the processing

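Over all 15 alternatives, 26 of the 76 genes changed direction at least once, 0 of them called, and 24 gained or lost a call. The share of all tested genes that was called moved too, from 7.9% to 10.6% with library size alone, 5.05% with the likelihood ratio test, 3.7% with DESeq2, 3.75% and 3.51% without the first and second 2-D library, and 10.6% and 9.57% without the first and second 3-D library. Among large subunit genes (4 called), scaling by library size alone gave 9 calls, no filter on low counts 7, length and GC offsets 2, limma-trend 1, and DESeq2 and edgeR's likelihood ratio test 0, and leaving out 1 library gave 0 to 7. The count was 0 without the first and 1 without the second 2-D library, and 7 without the first 3-D library. Among small subunit genes (4 called), library size alone gave 7, the likelihood ratio test 2, DESeq2 1 and the offsets with the replicate block 8, and leaving out 1 library gave 1 to 7, with 1 without either 2-D library and 7 without the second 3-D library. In the related lists (5 called), library size alone gave 16, no filter 8, and leaving out 1 library 3 to 10, with 3 without the second 2-D library and 10 without the second 3-D library. Library size alone moved the median of all tested genes by -0.06 (log2), and over all genes it turned 758 lower and 1024 higher calls into 1872 and 514. The median log2 fold change of large subunit genes was -0.0783 with library size alone, 0.0160 with the offsets and 0.0158 with the offsets and the replicate block, and -0.0300 to -0.0032 with a library left out. For small subunit genes it was -0.1045, 0.0084 and 0.0085, and -0.0844 (without the first 3-D library) to 0.0088 (without the second). Over all tested genes it was -0.0643 with library size alone, 0.0081 with the offsets and 0.0077 with the offsets and the replicate block. The sign of both subunits' medians is not settled. Same-numbered libraries did not deviate together (correlation -0.01). This value alone cannot settle whether they were prepared as pairs. The replicate block alone gave 6, 5 and 8 calls in the 3 groups. With 1 library left out, 17 of the 76 genes changed the sign of their log2 fold change, 0 of them called, among them MRPL12 (-0.417 to 0.0292, positive without the first 3-D library), MRPL57 (-0.197 to 0.0018, positive without the first 2-D library), MRPL23 (-0.166 to 0.446, negative without the second 2-D library) and MRPS28 (-0.769 to 0.0612, positive without the second 3-D library). Over the genes whose log2 fold change is named and all alternatives, 523 values kept their direction and side of the threshold, 52 lost and 27 gained a call, and 4 changed direction. The causes of these changes were not tested. The median SE of 0.058 over the 76 genes limits the differences that 2 libraries per condition can resolve.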
